A study of Mus musculus with 35 samples.

Results

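The genes described here are 52 genes of the cell cycle and of proliferation, out of 31053 genes counted in 35 libraries of mouse kidney. They were taken by name from a list, found by the symbols of the deposited counts and joined by Ensembl identifier to the other libraries, and all 52 were found. No measured value entered the rule, but the list was made with earlier results of these data known. By role they are 18 S-phase genes, 26 mitotic genes and 8 genes of G1 and its kinases, called G1 and CDK genes here.

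Whole kidneys were taken at post-natal day 2 (p2) from C57BL/6 mice of 3 crosses, and 3′ tag libraries of messenger RNA were sequenced. The Flcn cross holds 5 libraries labelled Flcn KO, in which the Flcn flox/flox alleles are combined with Ksp-cre+, and 5 controls. The Flcn/Tfeb cross holds 4 libraries labelled Flcn/Tfeb DKO, which carry floxed Tfeb as well as floxed Flcn with Ksp-cre+, and 3 controls. The Flcn/Tfe3 cross holds 10 libraries labelled Flcn/Tfe3 DKO, with floxed Flcn, Ksp-cre+ and Tfe3-/-, and 8 controls. These were counted in 2 tables, and the libraries of each table are called set B (6 DKO, 3 controls) and set C (4 DKO, 5 controls), beside set A, which holds the other 17 libraries. Controls are named by cross without alleles in the labels, and the study gives its controls as Flcn flox/flox. Ksp-cre is driven by the Cdh16 promoter and is active in cells that include collecting ducts, distal tubules and thick ascending limbs, so cells outside its range keep Flcn and Tfeb, whereas Tfe3-/- mice are described by the study as null and the allele is not limited to Ksp-cre cells. In counts of whole kidney, fewer cells of a type and less RNA per cell cannot be told apart.

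A cell that divides passes from G1 through S phase, in which DNA is copied, and G2 to mitosis, in which the chromosomes are parted. D-type cyclins with Cdk4 and Cdk6 release E2F factors from retinoblastoma proteins and so start the genes of DNA replication, and a later wave of mitotic genes depends on Mybl2, Foxm1 and the DREAM and MuvB complexes, which act at CHR elements, often beside CCAAT boxes bound by NF-Y. Cdkn1a (p21) and Cdkn1b (p27) hold cyclin-dependent kinases back. The mouse kidney still forms nephrons in the days after birth, and its nephron progenitors, stroma and growing tubules divide.

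The S-phase and mitotic genes differed in the letters of their promoters. RefSeq promoters of build GRCm38.p6, 250 bases before to 50 after the transcription start, were matched to 41 of the 52 genes. Aurkb, Foxm1, Cdc25c, Ccnd2, Ccna2, Kif20a, Ccne2, Ccnd1, Tpx2, Gmnn and Mcm4 had no entry. E2F letters (TTCCCGC, its variant TTCGCGC, a further variant TTGGCGC or the variant TTGCCGC, on either strand) were in 9 of 15 S-phase promoters (60%), 4 of 20 mitotic promoters (20%) and 1 of 6 G1 and CDK promoters (16.7%), against 9.69% of all 27025 promoters of the same length. CHR letters (TTTGAA or else TTCGAA, on either strand) were in 16 of 20 mitotic promoters (80%), 2 of 15 S-phase promoters (13.3%) and none of the 6 G1 and CDK promoters, against 19.4% of all promoters. CCAAT on either strand was in 18 of 20 mitotic promoters (90%), 9 of 15 S-phase promoters (60%) and 2 of 6 G1 and CDK promoters (33.3%), against 37.9%. In the mitotic promoters the 23 CHR matches had a median position of -18 from the start, and 17 lay within 100 bases of it. The 44 CCAAT matches there had a median position of -83. The letters CACGTG, the core that TFEB and TFE3 are known to bind, were in none of the mitotic promoters, 1 of 15 S-phase promoters and 2 of 6 G1 and CDK promoters (those of Cdk4 and Cdk6), against 7.24% of all promoters. Members had a median GC content of 59.3%, all promoters 52.7% and the 17491 promoters of protein coding genes 56.3%. Of the protein coding promoters 12.2% held E2F letters, 18.2% CHR letters, 39% CCAAT and 7.9% CACGTG. A match is a description of letters and not a bound site.

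**Figure D1:**
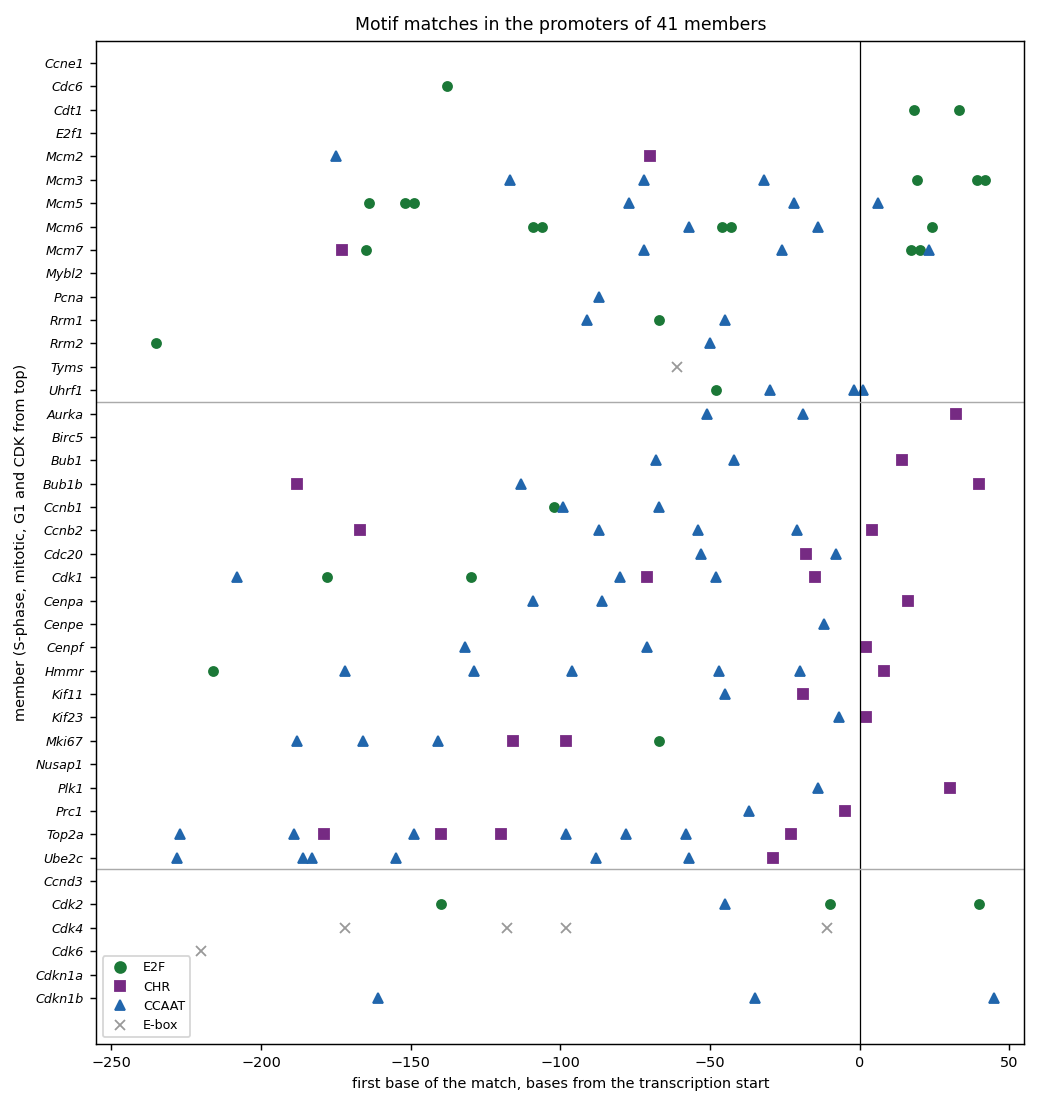
Matches of E2F, CHR, CCAAT and E-box (CACGTG) letters in the promoters of 41 members, by role from top to bottom. The horizontal axis is the distance in bases of the first base of a match from the transcription start (vertical line). CHR matches lie on both sides of the start in the mitotic genes, with a median position of -18, and E2F matches lie mainly in the S-phase genes.

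Promoters of 3 mitotic genes, 3 S-phase genes and Cdkn1b are printed because these genes recur in the comparisons and show how the letters combine. Each is 250 bases up to the base before the start, on the gene's strand, and capitals mark E2F, CHR and CCAAT letters as spelled above, with overlapping matches as 1 run of capitals. They lie at chr10:69352913-69353162 (minus strand, Cdk1, the kinase that drives entry into mitosis), chr11:99024190-99024439 (minus, Top2a, the topoisomerase that untangles replicated DNA), chr4:118437344-118437593 (minus, Cdc20, an activator of the anaphase-promoting complex), chr8:75109259-75109508 (plus, Mcm5) and chr1:128359706-128359955 (minus, Mcm6), which are subunits of the replicative helicase, chr7:102441445-102441694 (plus, Rrm1, a subunit of ribonucleotide reductase) and chr6:134920151-134920400 (plus, Cdkn1b). The Top2a stretch held 4 CHR and 6 CCAAT matches, the Cdk1 stretch 2 E2F, 2 CHR and 3 CCAAT matches, and the Mcm6 stretch 4 E2F and 2 CCAAT matches.
Cdk1: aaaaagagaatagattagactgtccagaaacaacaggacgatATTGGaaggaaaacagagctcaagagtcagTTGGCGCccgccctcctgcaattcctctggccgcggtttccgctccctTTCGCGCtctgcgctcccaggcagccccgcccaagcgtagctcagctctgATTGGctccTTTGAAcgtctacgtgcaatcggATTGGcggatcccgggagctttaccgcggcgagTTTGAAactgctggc
Top2a: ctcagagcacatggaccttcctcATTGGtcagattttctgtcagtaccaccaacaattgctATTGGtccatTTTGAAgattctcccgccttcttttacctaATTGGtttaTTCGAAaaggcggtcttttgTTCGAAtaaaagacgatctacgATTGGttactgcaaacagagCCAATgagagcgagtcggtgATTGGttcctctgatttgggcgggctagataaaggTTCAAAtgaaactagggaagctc
Cdc20: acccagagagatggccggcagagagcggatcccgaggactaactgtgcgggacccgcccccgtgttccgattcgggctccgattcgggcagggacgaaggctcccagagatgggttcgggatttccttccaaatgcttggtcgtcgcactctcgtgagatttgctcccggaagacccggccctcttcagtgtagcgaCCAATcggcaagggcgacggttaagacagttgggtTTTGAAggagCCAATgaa
Mcm5: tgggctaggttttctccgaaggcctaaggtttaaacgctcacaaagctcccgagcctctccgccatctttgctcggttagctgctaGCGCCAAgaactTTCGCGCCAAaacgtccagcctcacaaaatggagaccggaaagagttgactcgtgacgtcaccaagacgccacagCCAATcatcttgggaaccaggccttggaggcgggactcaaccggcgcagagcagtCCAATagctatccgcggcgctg
Mcm6: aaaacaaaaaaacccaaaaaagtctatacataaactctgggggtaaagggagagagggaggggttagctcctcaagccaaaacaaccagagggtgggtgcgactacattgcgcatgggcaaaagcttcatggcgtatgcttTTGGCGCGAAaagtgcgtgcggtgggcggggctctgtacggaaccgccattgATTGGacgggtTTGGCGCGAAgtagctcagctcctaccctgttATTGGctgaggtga
Rrm1: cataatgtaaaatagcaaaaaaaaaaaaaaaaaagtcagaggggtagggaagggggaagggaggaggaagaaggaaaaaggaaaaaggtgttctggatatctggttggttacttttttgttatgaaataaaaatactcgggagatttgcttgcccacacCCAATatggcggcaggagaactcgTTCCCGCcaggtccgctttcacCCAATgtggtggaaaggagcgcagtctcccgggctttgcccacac
Cdkn1b: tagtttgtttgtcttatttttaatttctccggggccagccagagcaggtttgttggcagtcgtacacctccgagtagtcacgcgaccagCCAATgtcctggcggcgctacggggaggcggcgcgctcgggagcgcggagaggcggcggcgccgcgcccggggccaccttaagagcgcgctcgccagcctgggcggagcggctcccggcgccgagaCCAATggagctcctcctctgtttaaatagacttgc

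Libraries held 1652649 to 4239356 reads on genes (median 2992169), and 3 counts, the limit that a count of 0 allows, came to 0.708 to 1.81 CPM (counts scaled to a common library size). None of the 52 members was at 0 in any library. The lowest counts were 2 for Cdc25c, 4 for Aurkb and 5 for Mybl2. The Flcn counts did not check the labels, at 11.3 to 18.5 CPM of the library in Flcn controls and 10.4 to 17.8 in Flcn KO, since 3′ tags can lie outside the deleted part. Tfeb was 6.35 to 22.7 CPM in Flcn/Tfeb controls and 6.05 to 7.38 in Flcn/Tfeb DKO. Tfe3 overlapped with control in the libraries labelled Flcn/Tfe3 DKO, at 13.2 to 26.1 CPM against 16.3 to 26.3 in controls of set B and 16.8 to 19.6 against 15.4 to 18.3 in set C, so its counts did not check the Tfe3-/- label either. Nothing in the labels says which libraries came from separate litters, so p-values measure the spread between these libraries.

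Some control libraries stood apart in the level of the cell cycle genes. The mean log2 CPM of the mitotic genes was 5.98 in Flcn control 4 and 5.82 in Flcn control 5, but 5.38, 5.19 and 5.25 in Flcn controls 1 to 3. In the 5 Flcn KO libraries it was 5.27, 5.56, 5.30, 5.37 and 5.65. The same measure was 5.74 in Flcn/Tfeb control 3, against 4.92 and 4.97 in the other controls and 4.95, 4.93, 4.89 and 4.70 in the 4 Flcn/Tfeb DKO libraries. S-phase genes were high in the same libraries, with means of 5.34 and 5.28 in Flcn controls 4 and 5, against 4.81 to 5.10 in the other 8 libraries of the Flcn cross, and of 5.42 in Flcn/Tfeb control 3, against 4.70 to 4.85 in the other 6 of its cross. In these 3 libraries mitochondrial genes took 4.88%, 4.93% and 4.47% of the counts, and 7.33% to 11.9% in the other 14. Reads on no gene made up 9.06% to 11% of the tally in these 3 and at least 12.9% in the other 14. In set C the 4 Flcn/Tfe3 DKO libraries had mitotic means of 5.72 to 5.95 with mitochondrial shares of 2.72% to 4.27%, control 6 had 5.91 with 3.01%, and the other 4 controls had 5.33 to 5.66 with 4.08% to 7.80%. Set B had mitotic means of 5.42 to 5.48 in controls and 5.17 to 5.53 in DKO, with mitochondrial shares of 1.79% to 3.56%. The part of RNA quality or dissection in these differences was not tested, but fits with the mitochondrial share as a covariate are given with each cross.

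**Figure D2:**
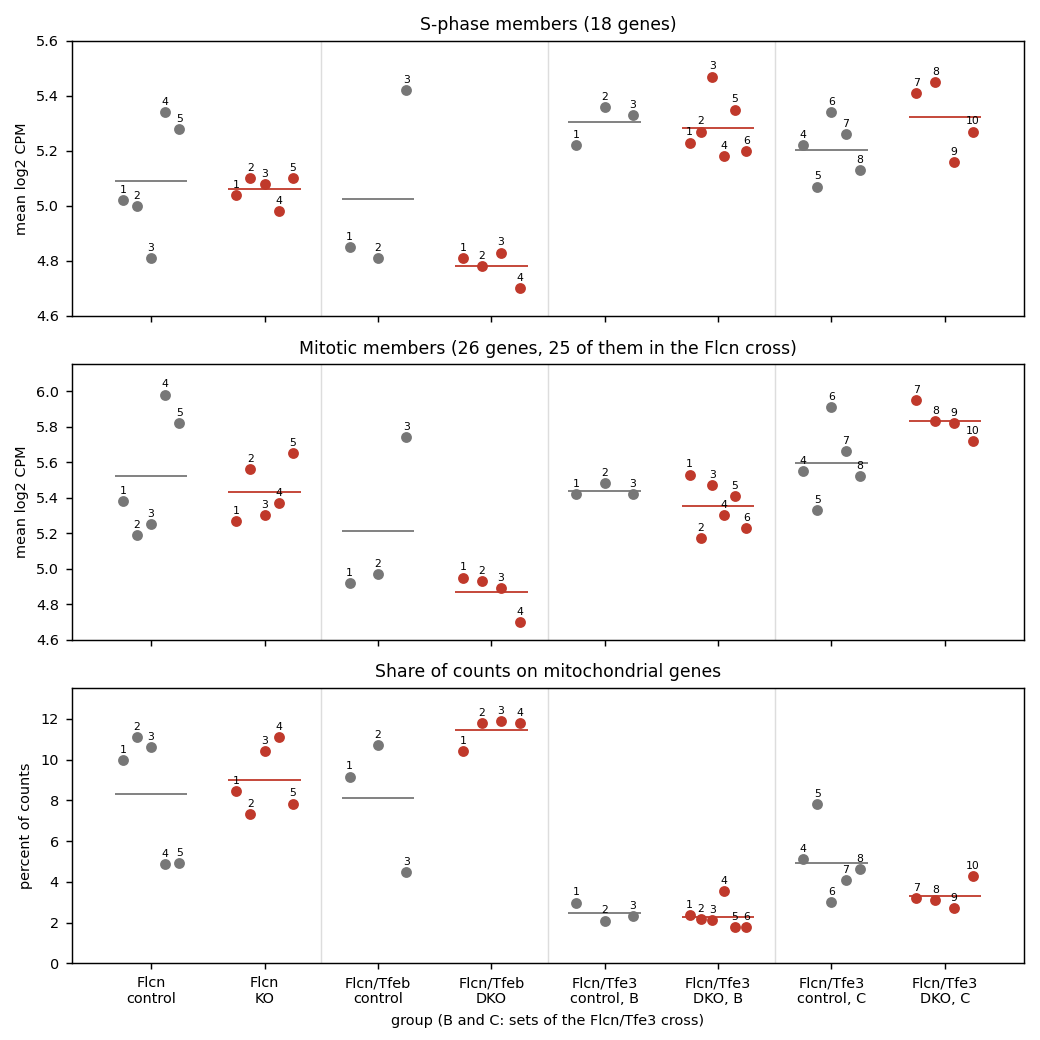
Mean log2 CPM of the S-phase and mitotic members and the percentage of counts on mitochondrial genes in each library, with the replicate number above each point and a line at the group mean (grey, controls, and red, KO or DKO). Levels were scaled within each cross, so groups of different crosses are not compared. Flcn controls 4 and 5 and Flcn/Tfeb control 3 are high for both roles and low for the mitochondrial share.

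The balance of S-phase and mitotic genes differed little between the groups of a cross. The S-phase mean less the mitotic mean was -0.43 ± 0.17 in Flcn controls and -0.37 ± 0.15 in Flcn KO (log2, SD, n = 5 each). It was -0.19 ± 0.13 (n = 3) in Flcn/Tfeb controls and -0.09 ± 0.07 (n = 4) in Flcn/Tfeb DKO. In the Flcn/Tfe3 cross it was -0.14 ± 0.06 (n = 3) in controls and -0.07 ± 0.13 (n = 6) in DKO of set B, and -0.39 ± 0.11 (n = 5) and -0.50 ± 0.12 (n = 4) in set C. The ranges of control and KO or DKO overlapped in each of these 4 pairs.

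The members varied between animals of a group to unlike degrees. In the Flcn cross the dispersion lay above the fitted trend for 11 of 18 S-phase genes (61.1%) and 18 of 25 mitotic genes (72.0%), against 34.1% of all genes tested. In the Flcn/Tfeb cross this was so for 9 of 18 (50%) and 12 of 26 (46.2%), against 32.7%, and in the Flcn/Tfe3 cross for 8 of 18 (44.4%) and 12 of 26 (46.2%), against 34.0%. Of the 8 G1 and CDK genes it was so for 4 (50%), 3 (37.5%) and 2 (25%) in the 3 crosses. These values include the control libraries that stood apart. Ccnd2 (cyclin D2) was among the steadiest genes, with a within-group SD of 0.11, 0.11 and 0.17 on the log2 scale in the 3 crosses in the order above, at or below the 8.0 percentile of all genes tested. Cdk4, the kinase of the D-type cyclins, had SDs of 0.13, 0.22 and 0.19, and Kif23, a motor of cytokinesis, 0.18, 0.16 and 0.23. Cdc6, which loads the helicase on origins, had 0.65, 0.54 and 0.36, with 6 counts in Flcn KO 4, its lowest. Mki67, the gene of the Ki-67 antigen, was steady in the Flcn cross (0.15), less so in the Flcn/Tfeb (0.22) and Flcn/Tfe3 (0.29) crosses.

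In Flcn KO kidneys at p2 no cell cycle gene differed from control after adjustment. Most members had estimates just below 0, and the cyclin E2 gene and the p27 gene had the largest distances from 0. Of 11932 genes tested in edgeR, 54 were called higher (0.453%) and 8 lower (0.067%) in Flcn KO at an adjusted p under 0.05, and 0 of 51 members were called in either direction. DESeq2 also called 0. At an unadjusted p under 0.05 edgeR gave 1 member above control and 1 below it, 1.96% each, against 5.25% and 3.81% of all genes, and DESeq2 gave the same counts. Aurkb, with 4 to 46 counts over the 35 libraries, did not pass the filter in this cross. The estimates were above 0 for 12 of 51 members, with medians of -0.11 for S-phase, -0.14 for mitotic and -0.13 for G1 and CDK genes, and -0.0074 for all genes. No member had Flcn KO libraries wholly above or below the controls, which held for 1.67% of all genes above and 0.712% below.

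Mki67 measured 171, 182, 163, 209 and 226 CPM in the 5 controls and 175, 180, 177, 164 and 171 in the 5 Flcn KO libraries. Its log2 fold change was -0.14 (95% interval -0.37 to 0.10, edgeR). The KO libraries lay within the range of controls 1 to 3, and controls 4 and 5 lay above every KO library. Top2a measured 398, 357, 363, 601 and 648 CPM in controls and 362, 479, 416, 363 and 473 in Flcn KO, with a log2 fold change of -0.18 (-0.54 to 0.18). Controls 4 and 5 were again the highest, and the others overlapped with Flcn KO. Pcna, the sliding clamp of replication, did not follow that split, at 48.2, 58.2, 58.2, 49.6 and 50.9 CPM in controls and 60.2, 59.9, 49.1, 47.1 and 44.1 in Flcn KO (-0.02, -0.29 to 0.24).

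Among S-phase genes the highest estimates in Flcn KO were those of Ccne2 (cyclin E2) and of Gmnn, an inhibitor of licensing. Ccne2 measured 63.2, 51.8, 39.3, 31.9 and 31.7 CPM in controls and 49.9, 58.5, 76.6, 61.8 and 53.9 in Flcn KO, a log2 fold change of 0.49 (SE 0.18, edgeR p = 0.0161, adjusted p = 0.402). Its lowest values were those of controls 4 and 5, the libraries in which most cell cycle genes were highest, and without them it was 0.22 (p = 0.188, edgeR). Gmnn was 0.16, resting in part on Flcn KO 4 (31.2 CPM against 16.6 to 19.0 in the others). The lowest estimates were those of the helicase gene Mcm2 (-0.30) and of Mybl2 (-0.25). Among mitotic genes Foxm1 (0.19) and the chromosomal passenger Birc5 (0.11) were highest, and Plk1 (-0.34), the polo-like kinase, and Tpx2 (-0.31), a spindle assembly factor, were lowest. Cdk1 was -0.14. Unadjusted p-values of these members other than Ccne2 were above 0.05.

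Among G1 and CDK genes the estimates ran from -0.41 for Cdkn1b to 0.21 for Cdk4, with Cdk6 at 0.04. Ccnd1 (cyclin D1) measured 374, 407, 383, 766 and 734 CPM in controls and 397, 443, 429, 379 and 539 in Flcn KO, a log2 fold change of -0.29 (-0.70 to 0.13). Controls 4 and 5 were well above the other 8 libraries, which overlapped. Cdkn1a, the p21 gene, measured 132, 140, 136, 214 and 165 CPM in controls and 96.9, 156, 113, 110 and 157 in Flcn KO (-0.31, -0.65 to 0.02).

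The small downward shift rested on Flcn controls 4 and 5. With both left out, an alternative chosen after their values were seen, 45 of 50 members had estimates above 0 and the medians were 0.11 for S-phase, 0.16 for mitotic and 0.04 for G1 and CDK genes. Then 4 members were higher at an unadjusted p under 0.05, against 4.01% of all genes, and 1 lower, against 3.4%. Cdkn1b was called lower (log2 fold change -0.63, SE 0.13, edgeR adjusted p = 0.0237), where 0.092% of all genes were called lower, and 0 members were called higher, against 0.335%. The controls left out were the lowest ones for Cdkn1b (80.6 and 90 CPM, against 151, 118 and 126 in the others). The choice of libraries by itself thus widened its difference. With the mitochondrial share as a covariate and all libraries kept, the medians were -0.0052, 0.0049 and -0.0325, and 0 members were called, where 0.905% of all genes were called higher and 0.176% lower.

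In Flcn/Tfeb DKO kidneys replication and mitotic genes had lower estimates than in their controls, led by Ccna2 (cyclin A2) and Kif20a, a kinesin of the late spindle, but no gene of the genome passed the adjustment and 1 control library set most of the difference. Of 12469 genes tested edgeR called 0 higher and 0 lower (0%), so 0 of 52 members were called, and DESeq2 called 0 members. At an unadjusted p under 0.05, 11 members were lower (5 S-phase and 6 mitotic, 21.2%) against 3.21% of all genes, and 0 were higher, against 1.86%. DESeq2 gave 11 lower. With the replicate number as a block fewer members were lower at that limit, as given in the last section. In the reported fit the estimates were above 0 for 9 of 52 members. The medians were -0.33, -0.51 and -0.12 for S-phase, mitotic and G1 and CDK genes, and -0.02 for all genes.

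Ccna2 measured 17.4, 15 and 53.1 CPM in the 3 controls and 15.9, 14.9, 11.2 and 8.18 in the 4 DKO libraries, a log2 fold change of -1.24 (SE 0.43, edgeR p = 0.0146, adjusted p = 0.798). Kif20a measured 6.73, 10.5 and 22.7 CPM in controls and 6.42, 4.95, 3.62 and 7.81 in DKO (-1.26, SE 0.44, p = 0.0154, adjusted p = 0.798). Mcm2 measured 26.4, 23.3 and 76.0 CPM in controls and 32.5, 20.4, 23.5 and 16.4 in DKO (-0.88, SE 0.40). In all 3 genes control 3 was the highest of the 7 libraries and the other controls overlapped with DKO. The helicase genes Mcm4, Mcm6 and Mcm7 were at -0.70, -0.67 and -0.63, the mitotic cyclin Ccnb1 at -0.60, Cdc20 at -0.81 and Tpx2 at -0.65, and all of these had an unadjusted p under 0.05.

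For 4 members, named after their values were seen, all DKO libraries lay below all controls, against 2.94% of all genes, and none lay above, against 2.71%. Cdk1 measured 67.8, 66.1 and 115 CPM in controls and 51.4, 51.4, 55.7 and 49.5 in DKO, a log2 fold change of -0.69 (SE 0.21, edgeR p = 0.00814). Rrm1 measured 56.6, 68.3 and 98.1 CPM in controls and 53.6, 49.5, 43.0 and 43.5 in DKO (-0.66, p = 0.00899). Top2a (322, 324 and 494 CPM against 288, 301, 297 and 256) was at -0.42. Cdk2, the kinase of cyclins E and A, was at -0.26, with 29.7, 29.4 and 30.1 CPM against 23.4, 27.2, 23.9 and 25.3. For Cdk2 the 3 controls lay close together, and for the other 3 genes control 3 was the highest.

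Mki67 measured 136, 169 and 197 CPM in controls and 156, 141, 144 and 115 in Flcn/Tfeb DKO, a log2 fold change of -0.27 (95% interval -0.67 to 0.12). Pcna was at -0.24 (47.1, 41.1 and 78.5 CPM against 48.3, 53.9, 44.1 and 44.3). These ranges overlapped. The highest estimate was that of Ccne2 (0.40), which measured 69.0, 72.2 and 19.3 CPM in controls and 63.8, 65.6, 76.3 and 71.4 in DKO. Control 3 was thus the lowest library for Ccne2 and the highest for the genes above. After it, the highest S-phase estimates were those of Tyms (0.16), thymidylate synthase, and Mybl2 (0.15), the highest mitotic ones those of Birc5 (0.18) and the checkpoint kinase Bub1 (0.17), and Ccnd2 (0.13) was the highest of the G1 and CDK genes. Ccnd1 was at -0.22, and Cdkn1a at -0.62, with 58.3, 77.2 and 259 CPM in controls and 91.0, 94.1, 66.2 and 96.3 in DKO.

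Flcn/Tfeb control 3 was the highest of the 7 libraries for 13 of 18 S-phase, 21 of 26 mitotic and 6 of 8 G1 and CDK genes, as it was for 32.9% of all genes. Without it 24 of 51 members had estimates above 0, the medians were -0.07, -0.11 and 0.14, and 2 members, Cdk1 (-0.36, edgeR p = 0.0214) and Rrm1 (-0.40, p = 0.0248), were lower at an unadjusted p under 0.05, against 2.34% of all genes, and 0 members higher, against 2.96%. With the mitochondrial share as a covariate the medians were 0.02, 0.06 and 0.21.

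**Figure D3:**
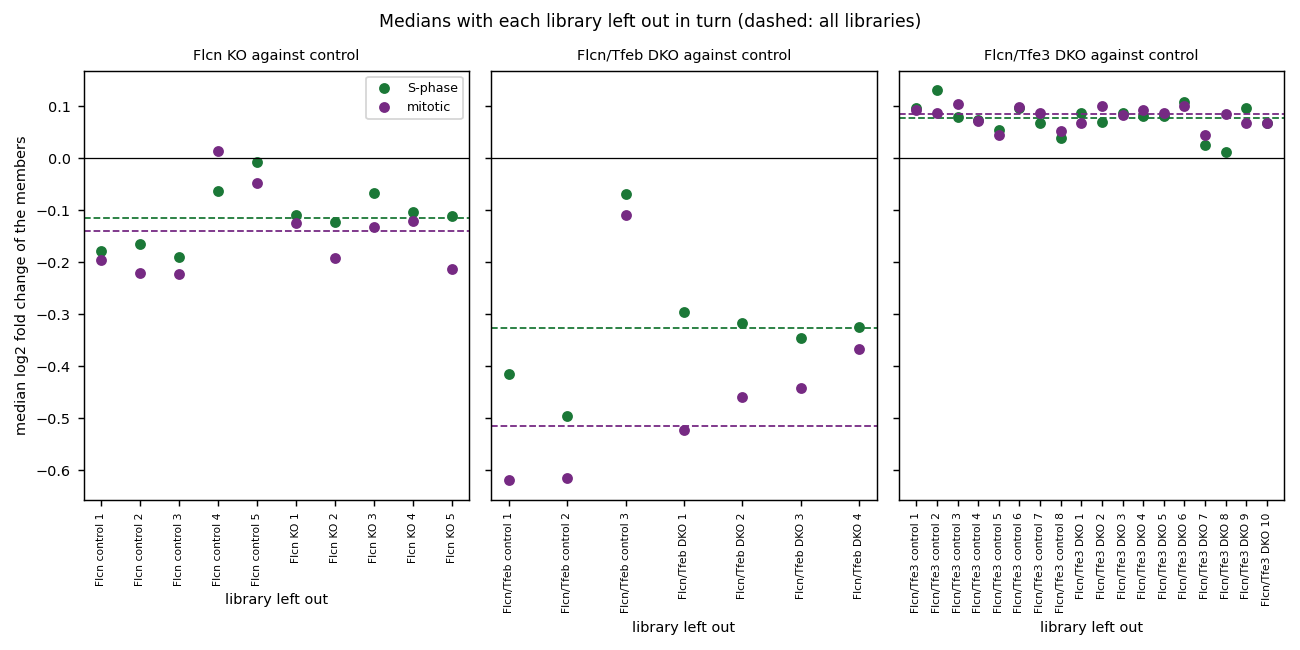
Median log2 fold change of the S-phase (green) and mitotic (purple) members with each library left out in turn, 1 panel a cross, with dashed lines for the medians over all libraries. In the Flcn/Tfeb cross the medians move from -0.33 and -0.51 to -0.07 and -0.11 without control 3, and in the Flcn/Tfe3 cross they stay between 0.01 and 0.13.

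In Flcn/Tfe3 DKO kidneys the cell cycle genes lay close to control, with small estimates above 0 for most of them and Cdkn1b as the lone member below 0 at an unadjusted p under 0.05. Of 12456 genes tested in edgeR, 43 were called higher (0.345%) and 5 lower (0.0401%), and 0 of 52 members were called. DESeq2 also called 0 members. At an unadjusted p under 0.05, 0 members were higher, against 3.68%, and 1 lower, against 3.48% of all genes, and DESeq2 gave 1 lower. The estimates were above 0 for 35 of 52 members, with medians of 0.08, 0.09 and 0.03 for S-phase, mitotic and G1 and CDK genes, and 0.01 for all genes. The 2 highest of each role were Tpx2 (0.30) and Nusap1 (0.22), a microtubule binder of the spindle, Mcm2 (0.24) and Mcm5 (0.20), and Cdk2 (0.21) and Ccnd1 (0.20). The lowest mitotic estimates were those of Cdc25c (-0.42), a phosphatase that activates Cdk1, and Cdk1 (-0.08), the lowest S-phase ones those of Gmnn (-0.28), Ccne1 (-0.20), the cyclin E1 gene, and Ccne2 (-0.20), and Cdk4 (-0.10) followed Cdkn1b among G1 and CDK genes. Top2a was at 0.20, Pcna at -0.02, Cdkn1a at 0.03 and Mki67 at 0.09 (95% interval -0.22 to 0.40).

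**Figure D4:**
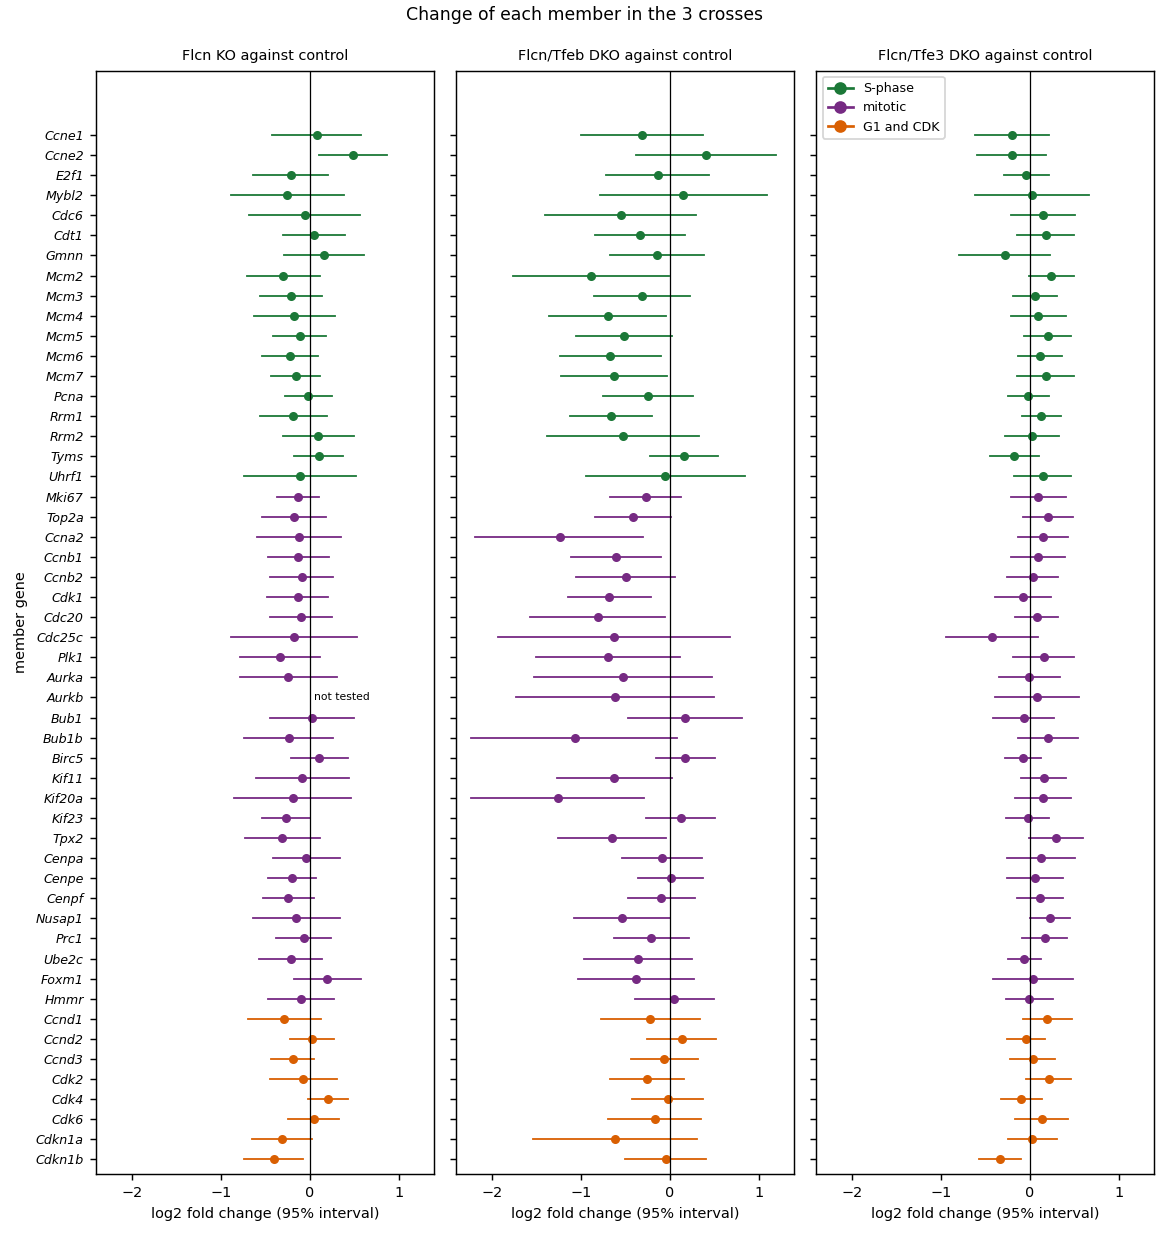
Log2 fold change of each of the 52 members with its 95% interval from edgeR, in the 3 crosses, with S-phase genes in green, mitotic genes in purple and G1 and CDK genes in orange. Intervals are widest in the Flcn/Tfeb cross, where most estimates lie below 0, and in the Flcn/Tfe3 cross that of Cdkn1b lies wholly below 0.

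Set B and set C gave unlike values for several members. Mki67 was 95.5, 79.6 and 97.4 CPM in controls and 50.4 to 100 (median 70.2) in the 6 DKO libraries of set B, a log2 fold change of -0.34 (-0.77 to 0.09). In set C it was 147, 157, 194, 196 and 144 CPM in controls and 247, 256, 212 and 226 in DKO, a log2 fold change of 0.45 (0.16 to 0.74, edgeR adjusted p = 0.0645). In set B the groups overlapped, and in set C every DKO library lay above every control. Ccne2 went the other way, at 0.28 in set B (30.1, 31.3 and 43.4 CPM in controls, 24.3 to 58.3 in DKO) and -0.68 in set C (67.6, 50.4, 29.0, 53.1 and 67.1 CPM in controls, 36.6, 36.1, 34.9 and 29.3 in DKO, adjusted p = 0.062). Bub1b, a kinase of the spindle checkpoint, was the member called in set C alone, at 18.9, 18.7, 26.9, 17.1 and 18.9 CPM in controls and 37.7, 34.8, 25.5 and 33.8 in DKO (0.67, SE 0.19, edgeR adjusted p = 0.0468), where 0.896% of all genes were called higher. No member was called lower there, against 3.78% of all genes. In set B it was at -0.31. The difference between the sets was not tested for these genes.

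With an unadjusted p under 0.05 taken alone, set C held 13 members above control and 5 below, against 8.63% and 12.7% of all genes, and the medians were 0.18, 0.17 and 0.15 for the 3 roles. Set B held 1 member above and 3 below, against 3.83% and 2.73%, where 0.0606% of all genes were called higher, and the medians were 0.003, -0.07 and -0.09. DKO libraries lay wholly above controls in set C for Mcm2, Mki67, the cytokinesis gene Prc1 and the centromere motor gene Cenpe (4 of 52, named after their values were seen, against 3.74% of all genes) and wholly below in set B for Mcm3 (1 of 52, against 1.28%). None lay wholly above in set B, against 1.72% of all genes, or wholly below in set C, against 2.28%. Mcm2 in set C measured 28.5, 27.4, 40.7, 38.0 and 37.9 CPM in controls and 43.5, 53.5, 43.4 and 54.0 in DKO. No member lay apart in both sets, above (against 0.273% of all genes) or below (against 0.0321%). With the mitochondrial share as a covariate the medians over both sets were 0.0146, 0.0016 and -0.006.

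**Figure D5:**
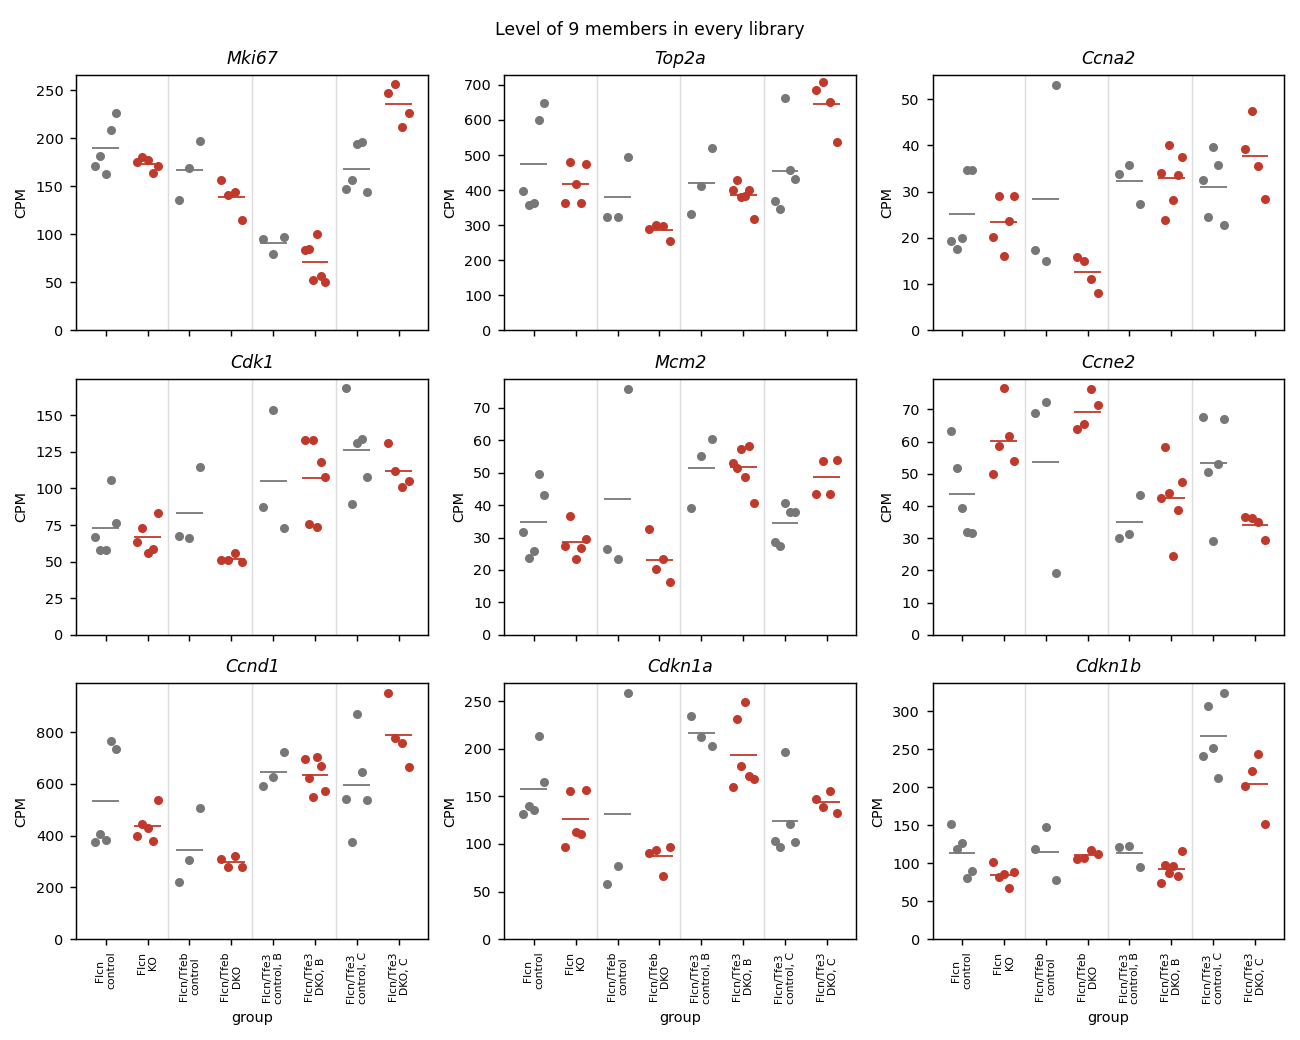
CPM of 9 members in every library (points) with group means (lines), controls in grey and KO or DKO in red, for the 3 crosses with sets B and C apart. Mki67, Top2a, Ccna2, Cdk1, Mcm2, Ccnd1 and Cdkn1a are high in a few controls of set A, and Ccne2 is low in them.

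Cdkn1b, which encodes the CDK inhibitor p27, was the member with the lowest unadjusted p in the Flcn/Tfe3 cross and the only lower member at an unadjusted p under 0.05 in the Flcn cross. It lies at chr6:134920401-134925513 (plus strand, mm10; ENSMUSG00000003031). In the Flcn cross it measured 151, 118, 126, 80.6 and 90 CPM in controls and 101, 81.1, 85.2, 67.5 and 87.9 in Flcn KO, a log2 fold change of -0.41 (SE 0.16, edgeR p = 0.0191, adjusted p = 0.42). Controls 1 to 3 lay above every Flcn KO library, and controls 4 and 5 among them. In the Flcn/Tfe3 cross it measured 121, 123 and 94.5 CPM in controls and 74.1 to 116 (median 91.6) in DKO of set B, and 241, 307, 251, 212 and 324 against 201, 221, 243 and 152 in set C. There the log2 fold change was -0.34 (SE 0.11, edgeR p = 0.0067, adjusted p = 0.389), at -0.29 (p = 0.0715) in set B alone and -0.42 (p = 0.0173) in set C alone. Groups overlapped in both sets. In the Flcn/Tfeb cross it measured 119, 147 and 78.2 CPM in controls and 105, 107, 117 and 112 in DKO (-0.05, SE 0.21), with control 3 the lowest library.

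Leaving out any 1 library kept the estimate of Cdkn1b between -0.51 and -0.28 in the Flcn cross, where unadjusted p ranged from 0.00274 to 0.0783, and between -0.40 and -0.28 in the Flcn/Tfe3 cross, where it ranged from 0.0025 to 0.0185. In the Flcn/Tfeb cross the estimates ranged from -0.27, without control 3, to 0.18. With the mitochondrial share as a covariate, chosen after the values were seen, the estimates were -0.46 (95% interval -0.71 to -0.20, edgeR adjusted p = 0.0764) in the Flcn cross, -0.41 (-0.71 to -0.11, adjusted p = 0.526) in the Flcn/Tfeb cross and -0.33 (-0.60 to -0.07, adjusted p = 0.951) in the Flcn/Tfe3 cross. None of these passed the adjustment, and the crosses share no libraries.

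The effects of the crosses were compared by interaction, each effect being taken against its own controls. For the Flcn/Tfeb DKO effect less the Flcn KO effect, edgeR called 0 of 13049 genes higher (0%) and 2 lower (0.0153%), and 0 of 52 members, DESeq2 also 0 members. At an unadjusted p under 0.05, 1 member, Ccna2, was lower (-1.14, p = 0.0285, edgeR), against 3.71% of all genes, and 0 were higher, against 2.24%, and DESeq2 gave 1 member. Without Flcn controls 4 and 5 that became 17 members lower, against 4.93%, and 1 higher, against 3.68%, and 0 of 12554 genes (0%), members or others, were called in either direction. Flcn/Tfeb control 3, which also stood apart, was kept in that fit. For the Flcn/Tfe3 DKO effect less the Flcn KO effect, 0 of 13615 genes were called in either direction (0%) by edgeR, and 0 members by DESeq2. At an unadjusted p under 0.05, Mcm2 (0.55) and Tpx2 (0.62) were higher and Ccne2 (-0.68) lower, 2 and 1 of 52 members against 3.61% and 3.83%. With set C alone in place of both sets, Mki67 (0.60, edgeR adjusted p = 0.0481) was called higher, where 0.881% of all genes were, and Ccne2 (-1.15, adjusted p = 0.038) lower, where 2.7% were. Set C alone also gave 15 members above 0 and 4 below at an unadjusted p under 0.05, against 10.2% and 12.5%.

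The Flcn/Tfe3 DKO effect lay above the Flcn/Tfeb DKO effect for 41 of 52 members and for 6857 of all 13637 genes. Of 13637 genes edgeR called 3 higher (0.022%) and 0 lower (0%), and 0 of 52 members, and DESeq2 called 0 members. At an unadjusted p under 0.05, 17 members were higher (6 S-phase, 10 mitotic and 1 G1 and CDK gene), against 7.57% of all genes, and 0 lower, against 4.6%. The medians were 0.43, 0.52 and 0.19, and 0.0028 for all genes, and the lowest unadjusted p was that of Ccna2 (1.39, p = 0.000686). This count rested on the Flcn/Tfeb controls. Without control 3, 1 member was higher at an unadjusted p under 0.05, against 1.63% of all genes, and without control 2, 3 members were called, namely Ccna2 (1.68, edgeR adjusted p = 0.0306), Mcm2 (1.39, adjusted p = 0.0474) and Cdc20 (1.17, adjusted p = 0.0489), where 0.573% of all genes were called higher. The interactions share libraries with each other and with the comparisons above.

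Other genes of the cycle, in lists made with earlier results of these data known, gave 0 calls in the 3 crosses. The shares of all genes called there were those given above. The lists held 40 further S-phase genes, 48 further mitotic genes, 25 further G1 and CDK genes and 15 genes of the p53 response. Of these genes 40, 47, 22 and 12 were tested in the Flcn cross. Their medians were -0.00066, -0.04, 0.02 and 0.04 in the Flcn cross, -0.10, -0.11, -0.01 and -0.03 in the Flcn/Tfeb cross, and 0.04, 0.06, -0.09 and -0.14 in the Flcn/Tfe3 cross. In the Flcn/Tfeb cross 2 further S-phase and 2 further mitotic genes were lower at an unadjusted p under 0.05, 5.0% and 4.17% of those tested, and 1 gene of the p53 response (7.69%), against 3.21% of all genes, and none was higher. In the Flcn cross 1 further mitotic gene was higher (2.13%), against 5.25% of all genes, and no gene of these lists was lower, against 3.81%. In the Flcn/Tfe3 cross 1 further S-phase, 1 further mitotic and 2 further G1 and CDK genes (2.5%, 2.08% and 8.7%) were higher, against 3.68%, and 1 further G1 and CDK gene (4.35%) was lower, against 3.48%.

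Summed markers of some kidney cell types lay apart between groups, or were highest in the libraries with high cell cycle genes. Sums hold the genes that passed the filter of a cross, so sums of different crosses can hold different genes. Of 10 nephron progenitor genes, 8 passed in the Flcn and Flcn/Tfeb crosses and 9 in the Flcn/Tfe3 cross. Their summed CPM was 99.4 to 132 in Flcn controls, highest in controls 4 (132) and 5 (130), and 74.8 to 111 in Flcn KO. In the Flcn cross 3 of the 8 tested were lower at an unadjusted p under 0.05, against 3.81% of all genes. In Flcn/Tfeb controls the nephron progenitor sum was 109, 87.1 and 147, highest in control 3, and 100 to 106 in DKO. In set C it was 139 to 208 in controls and 209 to 262 in DKO, and in set B 211 to 295 in controls and 161 to 235 in DKO. Stroma genes summed to 2630 to 3490 CPM in Flcn controls and 2500 to 2920 in Flcn KO, with 3 of 10 lower by that measure, and these overlapped. Erythroid genes summed to 2160 to 7880 CPM in controls and 1460 to 1920 in DKO of set C, but overlapped in set B (3680 to 6000 in controls, 3280 to 6270 in DKO). Over both sets 5 of 7 erythroid genes were lower at an unadjusted p under 0.05, against 3.48% of all genes, and 0 were called, whereas in Flcn KO the 6 tested had estimates above 0 (median 0.35) with no unadjusted p under 0.05. Podocyte genes summed to 519 to 577 CPM in Flcn controls and 405 to 500 in Flcn KO, and to 415 to 516 and 347 to 402 in the Flcn/Tfeb cross. Their sums overlapped in set B (468 to 537 in controls, 369 to 527 in DKO) and in set C (418 to 633 and 524 to 596). At an unadjusted p under 0.05, 2 of 7 were lower in Flcn KO, against 3.81% of all genes. By that measure 1 of 7 was lower in Flcn/Tfeb DKO, against 3.21%. None was higher or called in these 2 crosses. Genes of the thick limb and distal tubule, where Ksp-cre acts, summed to 1290 to 1780 CPM in Flcn controls and 1660 to 2050 in Flcn KO, and to 1130 to 1340 in controls and 1370 to 1470 in DKO of set C. These sums overlapped in set B (1290 to 1520 in controls, 1270 to 1830 in DKO). They also overlapped in the Flcn/Tfeb cross (1440 to 1540 in controls, 1320 to 1550 in DKO). In Flcn KO 3 of 10 of these genes were higher at an unadjusted p under 0.05, against 5.25% of all genes, 1 was lower, against 3.81%, and 1 was called higher by edgeR, against 0.453%. Collecting duct genes summed to 856 to 1050 CPM in Flcn controls and 986 to 1230 in Flcn KO, where 5 of 11 lay above control and 1 below at an unadjusted p under 0.05 and 2 were called higher. By the same measure, the Flcn/Tfe3 cross had 3 of 9 thick limb and distal tubule genes above control and none below. It had 4 of 11 collecting duct genes above and 2 below. Of all genes in that cross 3.68% were above and 3.48% below. There 1 thick limb and distal tubule gene was called higher, as were 43 of all 12456 genes, and no collecting duct gene was called. The Flcn/Tfeb cross had 2 of 11 collecting duct genes below control, against 3.21% of all genes, and none above, against 1.86%. Collecting duct sums there were 848, 751 and 1210 CPM in controls 1 to 3 and 827 to 883 in DKO. These sums overlapped, and control 3 was the highest library. No thick limb or distal tubule gene lay on either side there. Proximal tubule genes summed to 2650 to 3410 CPM in controls and 2260 to 2580 in DKO of set C and overlapped elsewhere. At an unadjusted p under 0.05, 2 of 10 were lower in Flcn KO, against 3.81% of all genes. In Flcn/Tfe3 DKO 2 of 10 were lower by that measure, against 3.48%. None was lower in Flcn/Tfeb DKO, and none was higher or called in any cross. Endothelium and myeloid sums overlapped in every pair of groups. The nephron progenitor marker Six2 was above 0 in all 35 libraries. The part of these cell types in the values of the cell cycle genes was not tested.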

How the data were processed

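Messenger RNA of p2 kidneys was counted in 35 libraries of 3 crosses. By the study's methods, bbduk was used to trim, STAR to align on mm10 and HTSeq-count to count, while the submitters' processing notes name Trim Galore with STAR. The values the authors deposited are whole-number counts per gene without normalization, and 99.62% of the genes are in GENCODE release M21. Reads that fell on no gene or aligned to several places (33.7% to 49.4% of the tally in the 26 libraries that give one) were left out of library totals and tests, so genes that share sequence with a copy can be undercounted. Over 63 pairs of libraries of 1 group and set chi-square divided by its degrees of freedom ran from 2.851 to 42.59, and no pair was treated as 1 library.

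Each comparison was fitted over all genes with the two-sided quasi-likelihood F test of edgeR 4.0.16 (R 4.3.3), after filterByExpr and TMM scaling, with the set as a term in the Flcn/Tfe3 cross. Benjamini-Hochberg adjustment ran over all tested genes, and called means an adjusted p below 0.05. Differences between crosses were interaction contrasts with a control mean for each cross and set. DESeq2 1.42.0 was an alternative, beside RLE factors, other filters, a replicate block, 1 fit over set A, each set alone and leaving out each library. The mitochondrial share as a covariate and the fits without Flcn controls 4 and 5 were added after the data were seen. CPM use library sizes times TMM factors, and log2 CPM add a prior count of 2. The scripts were tested on simulated data.

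The members, the gene lists and the tests were chosen with earlier results of these data known. Named with values were Mki67, Top2a, Ccnd1, Cdkn1a, Pcna and Cdk1 in every cross, every member called in a comparison, and per cross and role the 2 highest and the 2 lowest estimates (fewer where fewer lay on that side of 0); members named beyond this rule were chosen after their values were seen. Correlations between same-numbered libraries of a cross, as deviations from group means, ranged from -0.3439 to 0.3164, so replicate numbers were not taken to pair libraries. Promoters were those of RefSeq, GRCm38.p6.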

Additional observations from a re-analysis of the deposited data

Results flagged for a closer look

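The screen covered the roles and 31 of the members, most of them named above for the size of their estimates. The other members were not screened. Of 210 sets of values of such a member or role in a group of 4 to 6 libraries, 8 held a library whose gap to the nearest other was large for the range of its group. Chance gives about 1 in 20 such cases, so 8 is not above what chance gives. The mean log2 CPM of the G1 and CDK genes was 7.04 in Flcn/Tfeb DKO 2, against 6.96 to 6.97 in the other 3 DKO libraries. Bub1 was 8.18 CPM in Flcn/Tfeb DKO 4, against 12.8 to 13.7 in the others. Bub1b was 25.1 CPM in Flcn/Tfe3 DKO 1 of set B, against 17.1 to 18.1. It was 26.9 CPM in Flcn/Tfe3 control 6 of set C, against 17.1 to 18.9, and 10.5 CPM in Flcn/Tfeb DKO 2, against 5.79 to 6.42. Cdkn1a was 197 CPM in Flcn/Tfe3 control 6, against 96.5 to 121. Gmnn was 31.2 CPM in Flcn KO 4, against 16.6 to 19.0, and Rrm1 was 51.6 CPM in the same library, against 70.7 to 76.4.

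Flcn/Tfe3 control 6, apart for Bub1b and Cdkn1a, also had the highest mitotic mean of the set C controls (5.91) and the lowest mitochondrial share of them (3.01%). Flcn KO 4, apart for Gmnn and Rrm1, had 1689378 reads on genes, the fewest of the 10 libraries of its cross.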

How the results depend on the processing

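Of the counts of members called and the medians by role, 307 values under the alternatives kept to the reported value within the spread of replicates or 1.5 times and 17 moved. No member was called in the reported comparisons, and several medians changed sign. In the Flcn cross, leaving out controls 4 and 5 gave 1 member called and medians of 0.108 (S-phase), 0.161 (mitotic) and 0.039 (G1 and CDK), and the mitochondrial share as a covariate gave -0.005, 0.005 and -0.033. In the Flcn/Tfeb cross that covariate gave 0.021, 0.060 and 0.212, and in the Flcn/Tfe3 cross 0.015, 0.002 and -0.006. There set C alone gave 1 member called and 0.147 for G1 and CDK genes, and set B alone -0.067 for mitotic and -0.091 for G1 and CDK genes. For the Flcn/Tfe3 DKO effect less the Flcn KO effect, set C alone gave 2 members called. The cause of these shifts was not tested. Leaving out 1 library at a time gave 0 to 3 members called for the Flcn/Tfe3 DKO effect less the Flcn/Tfeb DKO effect, and medians from -0.495 to -0.069 (S-phase), -0.619 to -0.109 (mitotic) and -0.219 to 0.142 (G1 and CDK) in the Flcn/Tfeb cross. In the Flcn cross they ran from -0.19 to -0.007, -0.223 to 0.013 and -0.193 to -0.064, and in the Flcn/Tfe3 cross from 0.012 to 0.131, 0.044 to 0.104 and -0.02 to 0.096. With the replicate number as a block, 0 members were called in each cross and in the Flcn/Tfeb DKO effect less the Flcn KO effect, and the medians were -0.0877, -0.102 and -0.145 in the Flcn cross, -0.256, -0.312 and -0.0319 in the Flcn/Tfeb cross, and 0.108, 0.1 and 0.0149 in the Flcn/Tfe3 cross. Under the block 3 members in place of 11 were lower at an unadjusted p under 0.05 in the Flcn/Tfeb cross. No share of all genes under the block is given here, so these 3 members are not set against the 3.21% of the reported fit. Counts over all genes moved more than the members did, with 95 higher and 18 lower by DESeq2 in the Flcn cross, 78 and 18 in the Flcn/Tfe3 cross, and 2 and 0 under the block there. Low counts limit Cdc25c, Aurkb, Mybl2, Cdc6 and Kif20a, the members with fewer than 10 counts in a library.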
